A study of Homo sapiens with 5 samples.

Results

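Histone-modifying enzyme genes are described here by the RNA:DNA hybrid peaks that DRIP-seq placed on them in the human lung adenocarcinoma line PC-9. The members are the protein-coding genes whose symbols start with KMT, KDM, HDAC, SETD, KAT, SIRT, PRDM, NSD or EHMT followed by a digit, and a gene entered through its name alone, whatever its signal. At least 1 listed peak fell on 36 of the 83 such genes annotated in RefSeq, with 132 peaks in all, out of 80323 peaks on 12325 genes in the whole series and 27989 peaks on 8732 protein-coding genes. The other 47 members held no peak assigned to them in any of the 4 libraries. The study compared 2 libraries labelled exp with 2 libraries labelled control, all pulled down with the S9.6 antibody from PC-9 cells. A single input library entered only as reads counted over the peaks. The exp libraries are taken here as the FANCI knockdown that the design text names, since the sample labels themselves say only exp and control. FANCI pairs with FANCD2 in the Fanconi anaemia pathway, which repairs crosslinked DNA. No knockdown reagent, control reagent or time after knockdown is given by the labels. Whether the libraries of a group are separate cultures is not stated, and a p-value here therefore reflects the spread of these samples alone, which may be technical. The 4 lists held 16785 and 14354 peaks in exp 1 and exp 2, and 25281 and 23903 peaks in control 1 and control 2. The smallest −log10 p was 3.00 in each list, and whole-library depth was not used here.

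An R-loop forms when a transcript pairs with its template strand and leaves the other DNA strand single, and it is favoured where the displaced strand is rich in G. S9.6 binds RNA:DNA hybrids, so DRIP reads mark DNA on which such a hybrid was present in some of the cells. Because the cells were measured in bulk, hybrids in fewer cells and shorter-lived hybrids in each cell cannot be told apart. The members belong by name to families of enzymes that write and erase histone marks. Not every member does so, as SIRT4 and SIRT5 are mitochondrial and PRDM15 is a transcription factor. Lysine methyltransferases (KMT, SETD, NSD, EHMT and some PRDM proteins) and acetyltransferases (KAT) add methyl or acetyl groups, while demethylases (KDM), zinc-dependent deacetylases (HDAC) and NAD-dependent sirtuins (SIRT) remove methyl or acyl groups. Many of these enzymes are mutated or misexpressed in cancer and in neurodevelopmental disorders. A peak lies on the gene and says nothing of the amount or the activity of the enzyme.

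Promoter peaks at the members were listed in the control libraries alone, and 2 promoter sequences are shown because they belong to members of that kind. SETD5, which encodes a SET-domain protein mutated in intellectual disability, was the one member with a promoter peak in both control libraries and in no exp library. SIRT4, which encodes a mitochondrial sirtuin, had a control 2 promoter peak that holds the whole RefSeq promoter window of its downstream start site. The windows run from 250 bases before to 50 bases after the start site, on the plus strand of GRCh38.p14 as given by RefSeq, and capitals mark runs of at least 4 G or at least 4 C.
SETD5, chr3:9397365-9397664, plus strand: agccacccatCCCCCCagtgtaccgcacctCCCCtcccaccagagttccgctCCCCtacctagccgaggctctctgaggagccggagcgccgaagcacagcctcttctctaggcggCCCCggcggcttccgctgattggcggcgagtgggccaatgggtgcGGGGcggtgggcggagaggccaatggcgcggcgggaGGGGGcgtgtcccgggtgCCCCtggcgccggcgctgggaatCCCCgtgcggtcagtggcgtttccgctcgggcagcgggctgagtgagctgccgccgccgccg
SIRT4, chr12:120302071-120302370, plus strand: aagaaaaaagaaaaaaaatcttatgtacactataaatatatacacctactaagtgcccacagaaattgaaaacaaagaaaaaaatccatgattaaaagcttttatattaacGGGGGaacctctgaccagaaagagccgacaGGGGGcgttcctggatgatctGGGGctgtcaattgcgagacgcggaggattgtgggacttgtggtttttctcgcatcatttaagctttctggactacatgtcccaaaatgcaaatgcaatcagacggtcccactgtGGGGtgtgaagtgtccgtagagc
The SETD5 window was 73.7% G and C, with 2 runs of G, 6 runs of C and a GC skew, (G − C)/(G + C), of 0.01. The SIRT4 window was 42.3% G and C, with 4 runs of G, none of C and a skew of 0.12. The SETD5 promoter peaks themselves lay downstream of the window, starting 622 and 827 bases past the start site and ending within 1221 bases of it. Of 35116 RefSeq promoter windows, 75.1% held a run of 4 G (GGGG) on the gene's strand and 73.6% a run of 4 C (CCCC), with a median G and C content of 58.7%. Both runs were searched on the gene's strand alone, so that a run of C is a run of G on the other strand, and a run longer than 4 was counted once. Such runs are common, and the letters describe the window without locating a hybrid.

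Fewer members held a peak in the exp libraries than in the controls, and the reduction was smaller than that of protein-coding genes as a whole. A peak was listed on 20 members in exp 1 and 15 in exp 2, against 23 in control 1 and 22 in control 2. The exp mean of 17.5 ± 3.54 genes lay below the control mean of 22.5 ± 0.707 genes (SD, n = 2 each), a ratio of 0.778. The groups did not overlap, and p was 0.333 by an exact two-sided permutation test, the smallest p that 2 against 2 libraries allow. The same ratio over all protein-coding genes was 0.651, from 3743 and 3011 genes in the exp libraries and 5141 and 5234 genes in the controls. As a share of the protein-coding genes with a peak, the members made up 0.534% and 0.498% in the exp libraries against 0.447% and 0.420% in the controls, which did not overlap (exact permutation p = 0.333). Members with a peak had a median length of 84.1 kb, beside 46.5 kb for protein-coding genes with a peak. Neither the ratios nor these shares were matched for length, and no counting interval was computed for the shares. When each library was cut to its 14354 best peaks, the number in the smallest list, the order of the means turned round while the groups overlapped, with 18 and 15 member genes in exp 1 and exp 2 and 13 and 16 in control 1 and control 2 (exact permutation p = 0.667). With peaks given to members by RefSeq span, exp 1 and exp 2 held 27 and 17 member genes against 27 and 24 in the controls, so exp 1 equalled control 1 and the groups overlapped. With histone-modifying enzymes of other names added, the numbers were 29 and 23 in the exp libraries against 40 and 36 in the controls. The added enzymes alone numbered 9 and 8 against 17 and 14, so the smaller reduction did not extend to them.

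Peak numbers on the members moved in the same way as gene numbers. Exp 1 held 32 member peaks and exp 2 held 20, while control 1 held 37 and control 2 held 43, a ratio of means of 0.65 beside 0.54 for all protein-coding peaks. At the equal list length of 14354 peaks these numbers were 29 and 20 in the exp libraries and 17 and 24 in the controls, so that the order of the means turned here too and the groups overlapped. As a share of all protein-coding peaks of the library, the members made up 0.577% in exp 1 (95% Wilson interval 0.409 to 0.814%) and 0.469% in exp 2 (0.304 to 0.723%). Their share was 0.413% in control 1 (0.299 to 0.568%) and 0.467% in control 2 (0.347 to 0.628%). All 4 intervals overlap, exp 2 and control 2 nearly coincide, and the difference of means of 0.0832 percentage points had an exact permutation p = 0.333. These intervals cover counting error only. Restricted to peaks whose −log10 q reached 5, the difference was −0.0759 percentage points, from 0 and 0.478% in exp 1 and exp 2 against 0.276% and 0.354% in the controls. Those shares rest on 0 and 2 peaks in the exp libraries and 4 and 3 in the controls, and exp 2 lay above both controls. With histone-modifying enzymes of other names added, the share was 0.902% and 0.797% in the exp libraries. It was then 0.803% and 0.836% in the controls, and the groups overlapped.

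Over the peaks that were called, the members' DRIP reads per input read interleaved between the groups, while the same value set against that of all protein-coding peaks was higher in exp. The members' peaks held 4.86 DRIP reads per input read in exp 1 and 3.90 in exp 2, against 4.78 in control 1 and 4.05 in control 2 (exact permutation p = 1). Their ratio of means was 0.992. Over all protein-coding peaks the values were 2.97 and 2.41 in the exp libraries and 3.89 and 3.04 in the controls, a ratio of 0.777. The reads are not scaled for library depth. The members' value was therefore also set over the protein-coding value of the same library, a measure added after seeing the data. It was 1.64 in exp 1 and 1.62 in exp 2, against 1.23 in control 1 and 1.33 in control 2, without overlap (exact permutation p = 0.333, the smallest possible). The protein-coding values in it did not overlap between the groups either, whereas those of the members did. The protein-coding sums also include very large single peaks, of 16070 of 235736 DRIP reads in exp 1 and 31003 of 174236 in exp 2. In control 1 and control 2 the largest held 5279 of 395755 and 15004 of 348330, while no member peak exceeded 123 reads. The measure without such peaks was not computed. The unscaled difference of the members changed sign without exp 2, where it was 0.442, and without control 1, where it was 0.330.

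Of the 36 genes, 20 had a peak in 2 or more libraries and 16 in 1 library, and none was called in both libraries of 1 group and neither of the other. A peak was listed in all 4 libraries on 8 members, SETD5, KDM2A, PRDM15, KDM3B, HDAC1, KAT6B, HDAC11 and KMT2C, which is 22.2% of the members with a peak beside 12.2% of all protein-coding genes with a peak. The members with a peak were also longer. By length, the share in all 4 libraries was 0% (0 of 4 members) beside 4.92% below 20 kb. From 20 to 50 kb it was 28.6% (2 of 7) beside 9.12%. It was 37.5% (3 of 8) beside 12.4% from 50 to 100 kb and 17.6% (3 of 17) beside 22.3% at 100 kb and above. The contrast did not hold in the shortest or the longest genes, and between these it rested on few members and was not tested. A further 8 members had a peak in 3 libraries (22.2% beside 16.8%), namely HDAC4, SETD2, EHMT1, KDM5B, KAT2B, PRDM11, KDM2B and SIRT5. Of the 8732 protein-coding genes with a peak, 8.86% had one in both controls and neither exp library and 1.29% had one in both exp libraries and neither control. Both counts were 0 of 36 members, and a count of 0 allows a share of up to 8.33%. That limit lies just under the control-only share of all genes and far above the exp-only share, so at this number of members no lack of exp-only genes was detectable. Leaving out any 1 library gave between 1 and 6 control-only members and between 0 and 5 exp-only members. The 16 members in 1 library alone were 44.4% beside 45.1% of all.

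**Figure D1:**
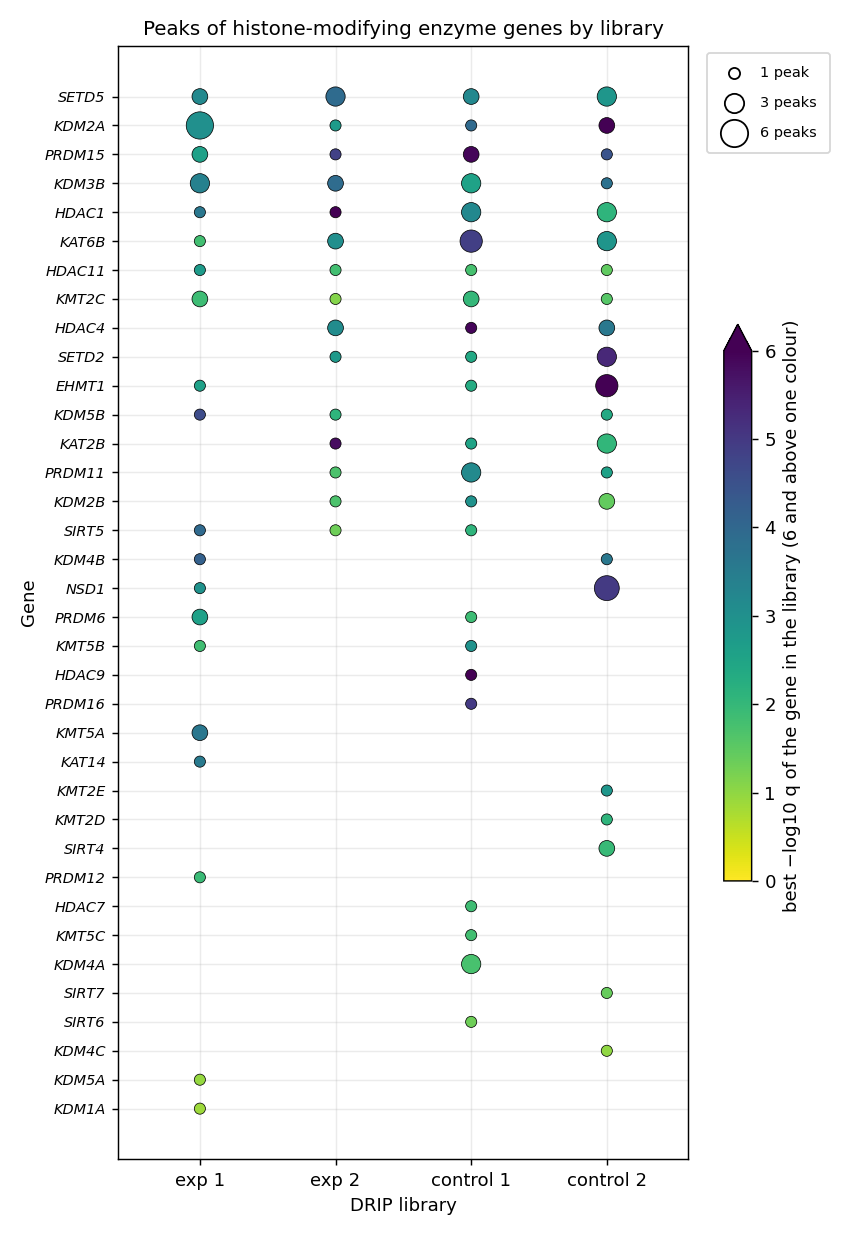
Each row is 1 of the 36 member genes and each column 1 DRIP library, with the dot area giving the number of peaks and the colour the best −log10 q of the gene in that library. The top 8 rows have a dot in all 4 columns, the next 8 in 3 columns and the last 16 in 1 column.

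**Figure D2:**
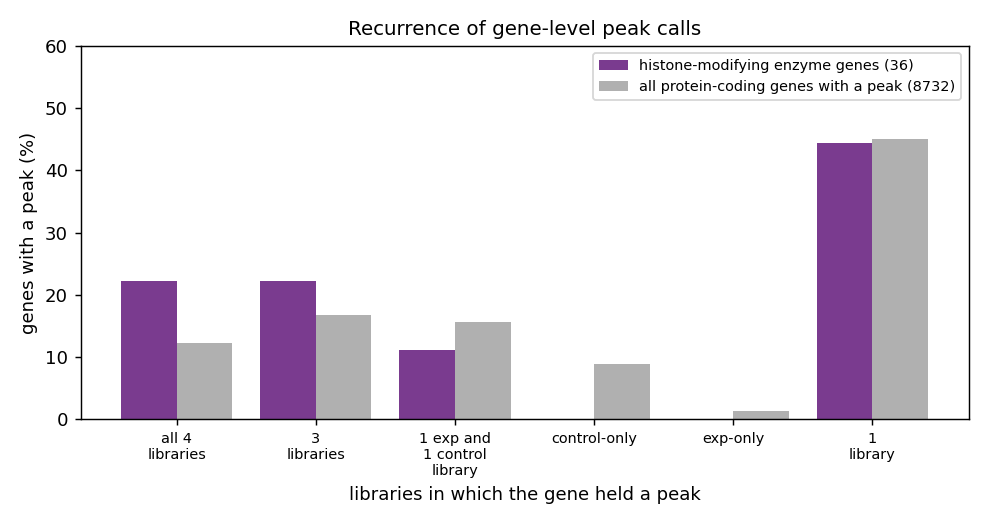
Bars give the percent of genes with a peak (vertical axis) by the libraries that held it (horizontal axis), for the 36 members and for all 8732 protein-coding genes with a peak. The members reach 22.2% in all 4 libraries beside 12.2%, and have no gene in the control-only or the exp-only class.

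Of the 20 members with a peak in 2 or more libraries, 13 had a region shared by 2 or more, although most regions were called once. The 132 peaks merged into 109 regions wherever they shared at least 1 base, and 91 of these (83.5%) were called in 1 library, beside 82.2% of the protein-coding regions. Among the 8 genes called in all libraries, 1 gene, PRDM15, had a region called in all 4 (0.917% of member regions, beside 1.93% of protein-coding regions) and 6 had a region called in 2 or more. HDAC11, a deacylase of the class that it alone forms, and KMT2C, an enhancer methyltransferase of the MLL group, had peaks at 4 and 6 separate places without any overlap. Pseudogenes of KMT2C and HDAC1 are annotated elsewhere in the genome, and whether reads could be shared with them was not tested. Of protein-coding regions, 3.78% were control-only and 0.888% exp-only, and the members had 3 control-only regions, on SETD5, KAT6B and SETD2, and 1 exp-only region, on SETD5. Of the 18 member regions called in 2 or more libraries, 10 joined 1 exp with 1 control library.

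**Figure D3:**
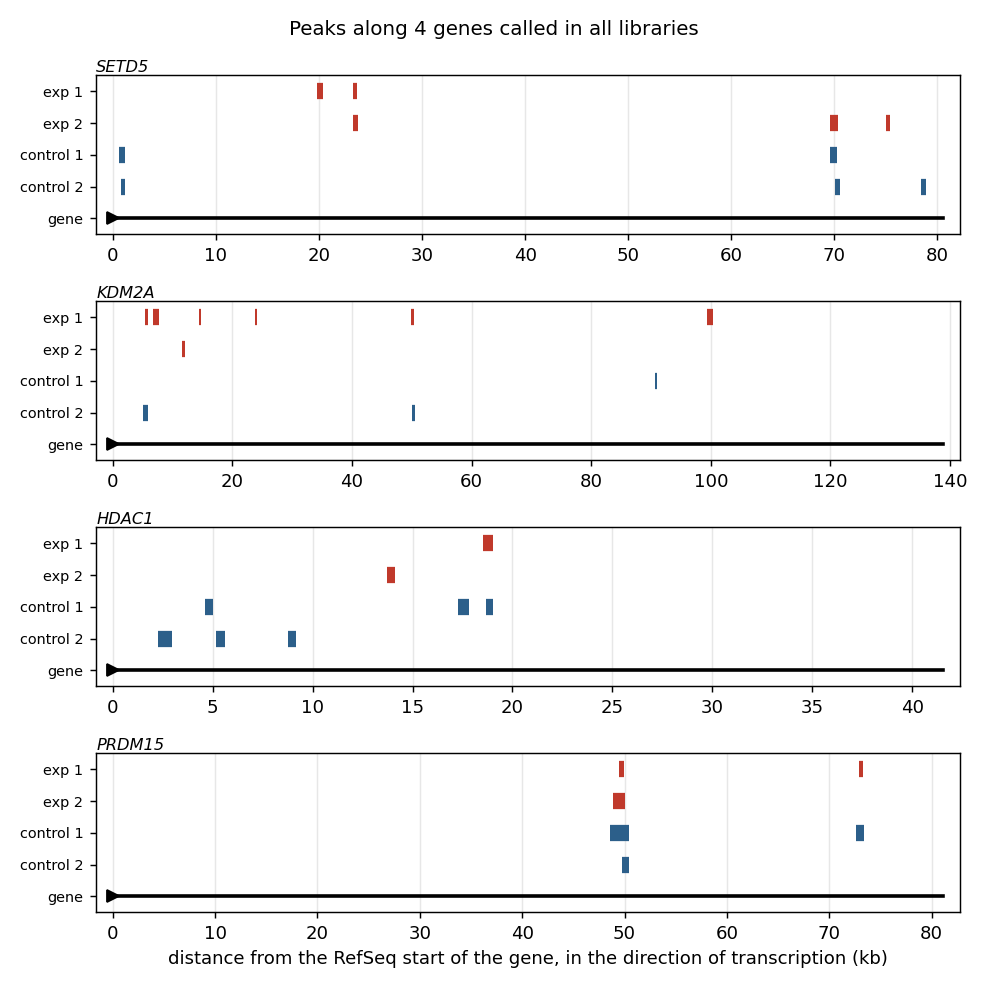
Horizontal bars mark the peaks of each library (rows, exp above control) along SETD5, KDM2A, HDAC1 and PRDM15, by distance from the RefSeq start in kb. The PRDM15 peaks stack near 49.5 kb in all 4 libraries, while those of KDM2A and HDAC1 are scattered and SETD5 shows a control pair near 0.921 kb and an exp pair near 23.5 kb.

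SETD5 (ENSG00000168137, chr3:9397615-9478154, plus strand) held 10 peaks and was the only member with both a control-only and an exp-only region. At chr3:9398237-9398836, in the promoter class and 0.921 kb from the gene start, control 1 had 34 DRIP reads over 6 input reads and control 2 had 18 over 4, while no peak was called there in either exp library. At chr3:9420900-9421427, in the gene body 23.5 kb from the start, exp 1 had 25 DRIP reads over 5 input reads and exp 2 had 30 over 6, and no peak was called there in either control. Neither place can be tested, because reads were deposited over a library's own peaks alone and the level in the libraries without a call is not known. Another region, chr3:9467219-9468114, was called in exp 2 with 34 reads and in control 1 and control 2 with 46 and 30 reads. Since these are 18 to 46 reads a peak, a call can be missed through counting error.

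KDM2A (ENSG00000173120, chr11:67119263-67258082), a CpG island-binding demethylase of histone H3, held 7 peaks in the exp libraries and 3 in the controls. Exp 1 alone held 6 of them, with 25 to 50 DRIP reads each, and exp 2 held 1 with 38 reads. Its strongest peak was in control 2, at chr11:67124374-67125183, with 64 DRIP reads over 9 input reads, a fold enrichment of 7.21 and −log10 q of 10.5. The same place was called in exp 1 with 31 reads over 7 and a fold enrichment of 3.31, and in neither of the other two libraries. The count of KDM2A peaks was high in exp 1 alone, and exp 2 lay within the range of the controls.

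HDAC1 (ENSG00000116478, chr1:32292083-32333626), the deacetylase of the Sin3, NuRD and CoREST complexes, held 1 peak in each exp library and 3 in each control. Its strongest peak was that of exp 2, with 32 DRIP reads over 3 input reads, a fold enrichment of 7.28 and −log10 q of 8.95, at a place where no other library had a call. Exp 1 and control 1 shared chr1:32310589-32311121 with 36 and 31 DRIP reads. KAT6B (ENSG00000156650, chr10:74824936-75032624), a MYST-family acetyltransferase, likewise held more peaks in the controls, with 1 and 2 peaks in exp 1 and exp 2 against 4 and 3 in control 1 and control 2. All protein-coding peaks were also fewer in exp, at 5543 and 4268 against 8969 and 9209 in the controls. How often a gene with as many peaks divides like HDAC1 or KAT6B was not computed. Near the end of KAT6B, chr10:75028603-75029168 was called in both controls with 52 and 43 DRIP reads and in neither exp library. KDM3B (ENSG00000120733, chr5:138352685-138437027), a demethylase of the JmjC family, held 3 and 2 peaks in the exp libraries and 3 and 1 in the controls, and its 9 peaks fell into 8 regions.

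PRDM15 (ENSG00000141956, chr21:41798225-41879344, minus strand), a PR-domain zinc-finger transcription factor, carried the only member region called in all 4 libraries. At chr21:41828882-41830718, 49.5 kb into the gene, exp 1 had 32 DRIP reads over 4 input reads in a peak of 498 bases and exp 2 had 66 over 9 in 1223 bases. At the same place control 1 had 123 over 14 in 1766 bases and control 2 had 44 over 6 in 679 bases. Raw reads were highest where the peak was widest, and the groups overlapped in reads and in width. Per base of peak, edgeR's quasi-likelihood test over the 1370 regions with exactly 1 peak in every library gave a log2 fold change of exp over control of −0.0025 (SE 0.26, Benjamini-Hochberg adjusted p = 0.998). An interval of 2 SE on either side runs from −0.52 to 0.51, so differences within it were not detectable. The width offset takes out any change that shows as a wider or narrower call, and without it the value was −0.38, with an interval from −1.46 to 0.70. Libraries were scaled to the reads of the same 1370 regions, so a change common to these regions is taken out as well. Regions without a call in some library were not tested. Of the 1370 regions, 0% were called at an adjusted p of 0.05 by edgeR, with 97 at an unadjusted p below 0.05, and DESeq2 called 0 with 21 at an unadjusted p below 0.05. Without exp 1, edgeR called 3 regions.

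A second PRDM15 place, 73.0 kb into the gene at chr21:41805975-41806769, was called in exp 1 with 21 DRIP reads over 1 input read and in control 1 with 47 over 3. The 6 PRDM15 peaks had the most one-sided base composition of the members, with a GC skew on the coding strand of 0.86 to 1.00. Values near 1 mean that almost all G and C of the peak are G on the strand that an R-loop leaves unpaired. The deposited skew was turned to the coding strand by the direction of the gene.

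HDAC4 (ENSG00000068024, chr2:239048168-239401649, minus strand), a class IIa deacetylase that represses MEF2 factors, shared 1 G-rich region among 3 libraries. At chr2:239345796-239346931 exp 2 had 32 DRIP reads, control 1 had 65 and control 2 had 41, each over 2 input reads. The coding-strand skew of these 3 peaks was 0.82, 0.82 and 0.81, and exp 1 had no call there. EHMT1 (ENSG00000181090, chr9:137619005-137836127, plus strand), the partner of EHMT2 in histone H3 dimethylation, had the opposite composition at its shared region. At chr9:137721133-137721832 exp 1 had 39 DRIP reads over 8 input reads, control 1 had 57 over 8 and control 2 had 73 over 13, with coding-strand skews of −0.85, −0.79 and −0.68. The control 2 peak had the highest −log10 q of the members, 12.7, while those of exp 1 and control 1 were 2.60 and 2.34. The direction of the hybrid is not known, since the libraries were not read by strand in these files.

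A larger share of skewed than of balanced peaks lay in regions called more than once, among the members as among all protein-coding peaks. A coding-strand skew of at least 0.5 in size was found in 19 member peaks (14.4%, beside 13.0% of protein-coding peaks). Of these member peaks 14 were rich in G and 5 in C, whereas the protein-coding peaks divided almost evenly, at 1846 and 1792. The 19 lay on 8 genes, with 6 on PRDM15 and 4 each on HDAC4 and EHMT1. Those of PRDM15 and HDAC4 were all rich in G, and most of them lay in regions called more than once. A strand preference among the members was not tested. Of the 19, 68.4% lay in regions called in 2 or more libraries, against 24.8% of the other 113 member peaks, and the same shares over protein-coding peaks were 69.5% and 29.7%. Peaks of 1 region share their sequence and are not independent, so these shares are given without a test. The median −log10 q was 3.52 for the skewed member peaks and 2.08 for the rest. Skewed peaks made up 15.6% and 15.0% of member peaks in exp 1 and exp 2, against 18.9% and 9.30% in control 1 and control 2, so the groups overlapped.

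**Figure D4:**
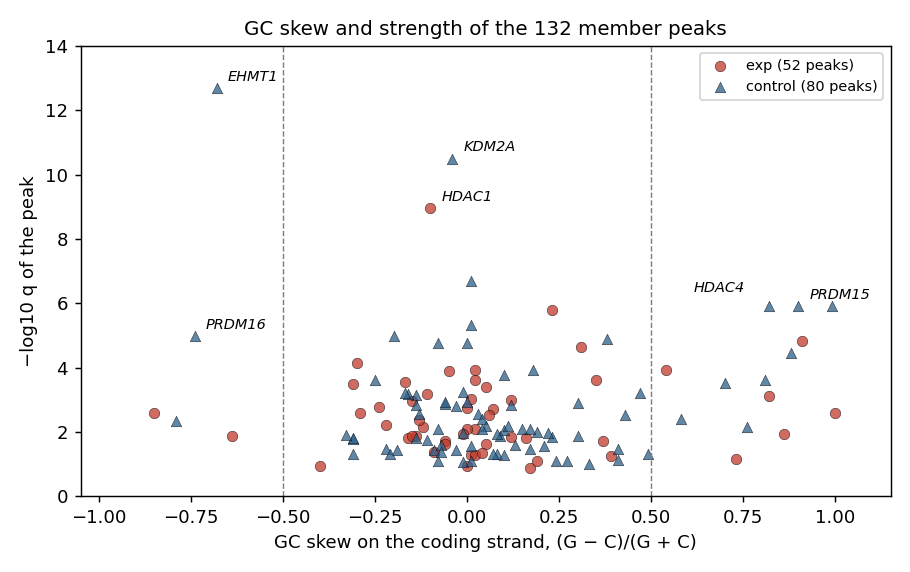
Each point is 1 of the 132 member peaks, with its GC skew on the coding strand (horizontal axis) and its −log10 q (vertical axis), circles for exp and triangles for control, and dashed lines at −0.5 and 0.5. All 6 PRDM15 peaks and 4 of the 5 HDAC4 peaks lie to the right of the G-rich line, EHMT1 and PRDM16 have peaks to the left of the C-rich line, and the KDM2A and HDAC1 peaks of high q lie near 0.

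The other genes called in 3 libraries had peaks of modest size at places that mostly differed. SETD2, the H3 lysine methyltransferase that travels with elongating RNA polymerase, held 1 peak in exp 2 with 22 DRIP reads, against 1 in control 1 with 21 and 3 in control 2 with 25 to 35. Both controls shared the SETD2 region chr3:47135959-47136619, 28.6 kb into the gene, with 21 and 31 reads. KAT2B, the acetyltransferase also called PCAF, held its strongest peak in exp 2, with 25 DRIP reads over 2 input reads and −log10 q of 5.80. KDM5B, a demethylase of histone H3 at promoters, had 1 peak in each of exp 1, exp 2 and control 2, with 32, 27 and 22 reads at 3 separate places. KDM2B, which recruits a Polycomb complex to CpG islands, had 1 shared region in exp 2 and control 2 with 23 and 33 reads. PRDM11 had 1 peak in exp 2 against 3 in control 1 and 1 in control 2, with 24 to 28 reads each. SIRT5, a mitochondrial desuccinylase, had 1 peak in each of exp 1, exp 2 and control 1, with 50, 19 and 24 reads and no overlap.

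The 20 members with a peak in 1 or 2 libraries had a best −log10 q between 0.878 and 6.68. NSD1, an H3 lysine methyltransferase, had 1 peak in exp 1 against 5 in control 2 and none in exp 2 or control 1, so its controls were 5 peaks apart. HDAC9 had a control 1 peak of 28 reads with −log10 q of 6.68 and PRDM16 one of 66 reads with −log10 q of 4.98, and no other peak was assigned to either gene. By RefSeq span, HDAC9 also held an exp 1 peak of 23 reads listed as intergenic, and PRDM16 held a place called in exp 1 and control 1 with 27 and 50 reads that the lists give to AL354743.1. KMT5C, a histone H4 methyltransferase, had the member peak with the most input reads, 109 DRIP reads over 40 input reads, at its promoter in control 1. These 4 genes, like SIRT4, were chosen after their values were seen.

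Promoter-class peaks were found on 0 members in exp 1 and in exp 2, against 4 members in control 1 and 3 in control 2 (exact permutation p = 0.333, the smallest possible). In control 1 these were KAT6B, KDM4A, KMT5C and SETD5, and in control 2 they were SETD5, SIRT4 and SIRT7. Of the 2003 protein-coding genes with a promoter peak, 7.79% were control-only and 0.649% exp-only. All protein-coding genes showed the same direction, with promoter peaks on 393 and 328 genes in the exp libraries and 1120 and 845 in the controls, a ratio of 0.367. Histone-modifying enzymes of other names had no such difference, with promoter peaks on 1 and 1 genes in the exp libraries and 1 and 1 in the controls. Among subunits and partners of the members' complexes the numbers were 2 and 2 against 6 and 3. The absence in the exp libraries rests on few peaks, since 0 of 32 peaks allows a promoter share of up to 9.38% and 0 of 20 peaks up to 15.0%, above the 7.38% and 7.92% of all protein-coding peaks of those libraries. The SIRT7 peak also overlaps the neighbouring gene MAFG. At −log10 q of at least 5 no member had a promoter peak in any library.

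By the role of the family, whatever the activity of the single gene, 47.4% of erasers and 43.3% of writers held a peak. Among KDM, HDAC and SIRT genes 18 of 38 held a peak, with 60 peaks, and among KMT, SETD, NSD, EHMT and KAT genes 13 of 30 held one, with 56 peaks. There were 9 and 8 eraser genes with a peak in the exp libraries against 11 and 11 in the controls, and eraser peaks 16 and 10 against 17 and 17. There were 8 and 5 writer genes against 8 and 9, and writer peaks 11 and 8 against 13 and 24. Calls also fell over all protein-coding genes, with a ratio of exp to control means of 0.651 for genes and 0.54 for peaks. The eraser and writer counts were not tested. The control 2 count of writer peaks stands apart from control 1, and the NSD1 and EHMT1 peaks described above lie in it. By family, the share with a peak ran from 2 of 9 SETD genes to 6 of 8 KMT genes, beside 41.4% of all annotated protein-coding genes. Between these lay 5 of 15 PRDM, 1 of 3 NSD, 3 of 8 KAT, 9 of 20 KDM, 5 of 11 HDAC, 1 of 2 EHMT and 4 of 7 SIRT genes. The families are small, and their shares were neither matched for length nor tested.

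Gene length went with having a peak. The 36 members with a peak had a median length of 84.1 kb and the 47 without had 26.9 kb, and over the 83 annotated members Spearman's rho between length and number of peaks was 0.43, beside 0.42 over 20056 protein-coding genes. All of these genes share the same 4 libraries. Of members of at least 100 kb, 65.4% held a peak beside 70.0% of protein-coding genes of that length, and below 20 kb the shares were 22.2% and 24.3%. From 20 to 50 kb the shares were 28.0%, which is 7 of 25 members, beside 45.0%, and from 50 to 100 kb they were 57.1% and 55.6%, with no test of either difference. Of annotated protein-coding genes 41.4% held a peak, close to the 36 of 83 members. Within the gene, 93.2% of member peaks were in the gene body class alone (83.6% of protein-coding peaks), and 31.1% lay in the first 20% of the gene (18.1%). The 18.1% is over the 26725 protein-coding peaks with a computed position along the gene. Protein-coding genes with a peak had a median length of 46.5 kb, below that of the members, and neither share was matched for length.

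Other genes of the same machinery were taken from 2 lists. Among 47 further histone-modifying enzymes with other names, 24 held a peak, in numbers of 9 and 8 in the exp libraries against 17 and 14 in the controls. Of these, CARM1, an arginine methyltransferase, and PADI4, which converts histone arginine to citrulline, were control-only (8.33% of the 24, beside 8.86% of all), and none was exp-only. CARM1 had 1 peak with 28 DRIP reads in control 1 and 5 peaks with 153 reads in control 2. Among 84 subunits and partners of the complexes in which the members work, 44 held a peak, in numbers of 22 and 13 in the exp libraries against 24 and 29 in the controls. PHF19, a Polycomb partner, and SAP130, a Sin3 subunit, were exp-only (4.55% beside 1.29%), and KANSL1, NCOA6 and TBL1XR1 were control-only (6.82% beside 8.86%). PHF19 had 30 DRIP reads in both exp 1 and exp 2 at 1 shared region, while SAP130 had 40 and 19 reads at 2 separate places. None of the control-only genes of either list had a region shared by both controls.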

How the data were processed

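The values came from 4 peak lists, 1 per DRIP library of PC-9 cells, not pooled. Per the submitters' processing notes, the tools were MACS2, Bowtie2, DiffBind, cutadapt and FastQC on GRCh38 (hg38), without versions or settings. Per the file headers, each peak carries raw read counts of its own DRIP library and of the input library, a fold enrichment ratio over a local background, a GC skew score, a width, a summit, a gene and a location class. Both significance columns that the authors deposited, for the p-value and the q-value, were read as −log10, since their smallest p entry was 3.00 in all lists. The skew was read as that of the reference strand, because it correlated with RefSeq promoter windows at r = 0.89 for 25 windows of plus-strand genes and 0.98 for 31 of minus-strand genes.

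Members were found by gene symbol and matched by symbol to RefSeq (GRCh38.p14), where all 36 were found, and the direction in the lists equalled the RefSeq strand in 33 of the 33 members with a promoter window. No genome sequence was used here, so exons and introns were not examined. Regions were made by joining peaks with an overlap of 1 bp or more, and the libraries in each region and gene were counted. Single values per library were compared by exact two-sided permutation tests. DRIP counts of regions with exactly 1 peak per library were tested with edgeR 4.0.16 (quasi-likelihood, peak width as offset, TMM factors from width-scaled counts) and with DESeq2 1.42.0 as an alternative, after a check on simulated data, with Benjamini-Hochberg adjustment over all regions. Other computations used Python 3.11.15 and scipy 1.17.1. Named genes are members with a peak in at least 3 libraries or in both libraries of a group, and further names are stated as chosen after their values were seen. The skew limit of 0.5 was likewise set after seeing the data. Members, lists and alternatives were chosen with earlier results of these data known. The alternatives were peak thresholds, input filters, equal list lengths, gene assignment by RefSeq span, wider membership and leaving out each library.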

Additional observations from a re-analysis of the deposited data

How the results depend on the processing

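Over 9 results, 62 of 82 alternatives kept the sign of the difference or, for results that are counts, the same count. The filter for peaks with more DRIP than input reads removed no member peak, so its unchanged member counts were fixed in advance. With a library left out, the sign of the promoter difference was fixed too, since both exp values were 0. Both kinds are among the 62, which therefore overstates how many alternatives could have changed a result. When every list was cut to its 14354 best peaks, the exp minus control difference was 2 member genes in place of −5 and 4 member peaks in place of −14, and exp-only members numbered 3 in place of 0 (HDAC11, KMT2C and SIRT5). This alternative drops more peaks from the controls by construction. At −log10 q of at least 5 the member share of protein-coding peaks differed by −0.0759 percentage points and the promoter difference was 0, and DRIP per input read gave no value because exp 1 had no member peak left. At −log10 q of at least 2 the difference in DRIP per input read was 0.137 in place of −0.036, and 1 member, PRDM11, was control-only. Adding the other histone enzymes gave 2 control-only genes and a share difference of 0.0299 in place of 0.0832 percentage points, with overlapping groups. Leaving out each library in turn gave differences of −7.5 to −2.5 member genes, −20 to −8 member peaks, 0.0289 to 0.138 percentage points in share, −4 to −3 promoter genes and −0.514 to 0.442 DRIP reads per input read. It gave 1 to 6 control-only and 0 to 5 exp-only members, which follows from the smaller number of libraries a gene must appear in, and 0 to 3 regions called by edgeR. The log2 fold change of the PRDM15 region ranged from −0.18 to 0.12 and was positive without exp 2 (0.042) and without control 2 (0.12), with no call in any, and −0.38 without the width offset. The cause of the other changes was not tested. Replicate numbers share only a number here: over 1370 regions the differences between libraries 1 and 2 of each group correlated at −0.07. With the replicate block the edgeR test called 0 regions and gave −0.029 for PRDM15 (adjusted p = 0.999). A typical member peak holds 26 to 31 reads, so single calls can be missed or gained by counting error.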

Other observations

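By RefSeq span, 33 further peaks at 15 members were assigned to another gene or to none in the deposited lists, and 40 members held a peak when these were included. HDAC8, KAT8, KDM6B, PRDM1 and SETD7 would otherwise have none. PRDM1, which encodes the transcription factor BLIMP1, held a region classed as intergenic in the lists. It was called in exp 2 at chr6:106011564-106012090 with 38 DRIP reads, against 55 reads in control 1 and 60 in control 2, and not in exp 1. PRDM11 held one that was called in all 4 libraries, with 38 DRIP reads over 12 input reads in exp 1 and 33 over 13 in exp 2, against 49 over 12 in control 1 and 40 over 12 in control 2. The −log10 q of the PRDM11 peak was 2.16 and 2.15 in the exp libraries and 5.88 and 2.06 in the controls, so control 1 stands apart. With this region PRDM11 had a peak in every library, as KDM2B did with a peak of 25 reads in exp 1 that the lists give to RNF34. On the X chromosome HDAC8 held a place called in exp 1 and exp 2 with 25 and 28 DRIP reads and in neither control, assigned in the lists to AL133500.1. HDAC8 also held a place shared by exp 1 and control 1 with 24 and 35 reads, and a control 1 peak of 18 reads. The SIRT4 span held an exp 1 peak classed as intergenic with 41 DRIP reads over 7 input reads and −log10 q of 7.12, which is the highest among the 33 peaks. These genes were chosen after their values were seen.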
